A study of Mus musculus with 58 samples.

Results

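The replication-dependent histone genes code for the core histones H2A, H2B, H3 and H4 and the linker histone H1 that package newly copied DNA. They were taken here as every gene whose symbol starts with Hist1h, Hist2h, Hist3h or Hist4h. This gave 70 of the 54532 genes in the bulk RNA tables of mouse striatum, and 67 of the 18411 genes in the lysate RNA and ribosome footprint tables, where Hist1h2aa, Hist1h2aj and Hist1h2al were not listed. The 70 genes comprised 6 H1, 20 H2A, 19 H2B, 12 H3 and 13 H4 genes.

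Most of these genes have no introns and lie in clusters, are transcribed in S phase, and make mRNAs that end in a stem-loop instead of a poly(A) tail. Stem-loop binding protein (Slbp) and the U7 small nuclear ribonucleoprotein form that 3′ end, and the mRNAs are degraded when DNA synthesis stops. A few of the genes, Hist1h1c, Hist1h2bc and Hist2h2be among them, are known also to give polyadenylated mRNA in cells that have left the cell cycle, which is the state of nearly all striatal neurons. Replication-independent histone genes such as H3f3a, H3f3b and H2afz make ordinary polyadenylated mRNA in any cell.

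The study compared 16p11.2 del/+ mice, which lack 1 copy of a region of 27 genes, and 3g del/+ mice, which carry premature stop codons made with CRISPR/Cas9 in 1 copy each of Taok2, Sez6l2 and Mvp, with wild-type (wt) mice of each line. All mice carried the strain label B6129S. The study's methods give littermate controls and an age of 10 to 14 weeks unless stated otherwise. They also give C57BL/6J matings for making the 3g line and a purchased 16p11.2 line. The methods do not describe the lysate and footprint libraries, and no age is given for the mice of those libraries. Bulk RNA was sequenced from 4 males and 4 females of each genotype and line (32 libraries), and lysate RNA and ribosome footprints from 13 males (3g line: 3 wt and 3 del/+; 16p11.2 line: 4 wt and 3 del/+). The labels do not say which mice shared a litter, so p-values measure the spread between these libraries, and in tissue RNA fewer cells of a type and less RNA per cell cannot be told apart.

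Libraries held 11711099 to 65529807 counts in bulk RNA, 15102576 to 19122488 in lysate RNA and 342052 to 678130 in footprints. Sez6l2, lost in both lines, averaged 140 and 148 CPM (counts scaled to a common library total, after TMM scaling) in 16p11.2 del/+ females and males against 320 and 353 in wt, and 203 in 3g del/+ mice of both sexes against 288 and 307 in wt. A set of 3 libraries stood apart. On a scale over all genes on which the 3g line lay at 0 and the 16p11.2 line at 1, 3g wt male 17 lay at 0.896 (other 3g libraries up to 0.161) and 16p11.2 del/+ male 4 at 0.199 (other 16p11.2 libraries at least 0.849). The library labelled 16p11.2 del/+ female 1 held the Y-linked Ddx3y at 38.6 CPM, which was at 0 in the other females of its line. Its Xist level was 0.463 CPM, against 324.5 to 919.4 in those females. Both values were like those of the males of the line, with Ddx3y at 30.2 to 41.2 CPM and Xist at most 0.239. The label was kept, and the library counts as a female unless it is left out. Counts, overlaps and summed levels of the bulk comparisons that turn on these libraries are given with and without them. The counts of the genotype by sex interactions are given with all libraries only.

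In bulk RNA the 70 genes were found mostly at or near 0, apart from a few. Together they held 99118 counts over the 32 libraries. Of the 70, 11 were at 0 in every library, 22 (these 11 included) had at most 10 counts in all, and 17 had a count in every library. Each library had a count for 29 to 44 of the genes.

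A group of 6 genes held 87.0% of these counts, uncorrected for gene length. They were the H2B gene Hist1h2bc (23.8%), the H1 gene Hist1h1c (22.5%), the neighbouring H2A and H2B genes Hist3h2a (14.97%) and Hist3h2ba (11.5%), and the H2B genes Hist1h2be (7.19%) and Hist2h2be (6.97%). The 3 genes named above for their known polyadenylated mRNA held 53.3%. Mean levels over the bulk libraries were 20.4 CPM for Hist1h2bc, 19.4 for Hist1h1c, 12.5 for Hist3h2a, 9.84 for Hist3h2ba, 6.26 for Hist1h2be and 5.85 for Hist2h2be. The next 4 genes were the H3 gene Hist2h3c2 (2.05 CPM), the H4 genes Hist1h4i (1.87) and Hist2h4 (1.55) and the H1 gene Hist1h1e (1.09). All other members averaged below these.

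Lysate RNA showed another make-up. The 67 listed genes held 61152 counts in 13 libraries, none was at 0 in every library, and 65 had a count in each. The 6 genes that led in bulk RNA held 27.3% of the counts there and 11.8% of the 6694 footprint counts. The 13 H4 genes, which code for the same protein in nearly all cases, held 5.63% of the histone counts in bulk RNA, 34.6% in lysate RNA and 52.2% in footprints. Each H4 gene held 1070 to 2823 counts over the lysate libraries, against 2 to 2109 over the bulk libraries.

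The other classes also spread their counts more evenly outside bulk RNA. The H2B genes held 50.5% of the histone counts in bulk RNA, 22.5% in lysate RNA and 15.9% in footprints. The H1 share was 24.03%, 12.5% and 9.77%, the H2A share 16.8%, 19.7% and 13.3%, and the H3 share 2.98%, 10.7% and 8.80%. Counts were found in lysate RNA for 10 genes that were at 0 in all 32 bulk libraries. Hist1h4f is an example of the contrast: 14 counts in the 16 bulk libraries of the 3g line and 5 in the 16 of the 16p11.2 line, against 77 to 130 counts in each 3g lysate library and 62 to 112 in each 16p11.2 lysate library.

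**Figure D1:**
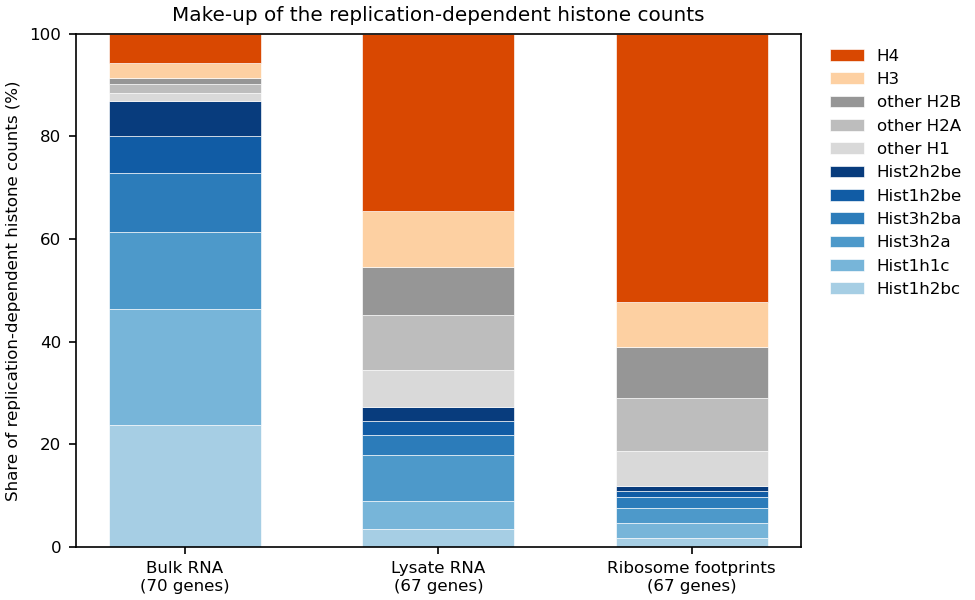
Share of all replication-dependent histone counts (y axis, percent) held by named genes and by the remaining genes of each class in bulk RNA, lysate RNA and ribosome footprints, each bar summed over all libraries of the assay. Hist1h2bc and Hist1h1c fill 46.3% of the bulk bar, while the H4 genes fill 52.2% of the footprint bar.

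The summed level followed the same order. As CPM of all counts without TMM scaling, the genes held 67.8 to 135 in bulk RNA, 215 to 343 in lysate RNA, 676 to 876 in footprints of the 16p11.2 line and 1231 to 1868 in footprints of the 3g line. Against the summed CPM of 8 replication-independent histone genes, the ratio was 0.159 to 0.255 in bulk RNA, 1.06 to 1.57 in lysate RNA and 3.0 to 5.23 in footprints. The 3 assays did not overlap in either measure.

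The labels name the molecule as poly(A) RNA for every library, whereas the bulk libraries are described in the same labels and in the study's methods as made with a Ribo-Zero kit, which removes ribosomal RNA and keeps RNA without a poly(A) tail. Among 13 other RNAs known to lack a poly(A) tail, only the small nuclear RNA Rn7sk had more than a few counts in bulk RNA. It had 5 to 443 counts in the 3g line (median 19) and 9 to 396 in the 16p11.2 line (median 237), or 5 to 86 and 47 to 396 without the libraries that stood apart. The other 12 had 1 to 7 counts together in each 3g library and 3 to 15 in each 16p11.2 library. None of the 13 was listed in the lysate or footprint tables, for which no selection method is given. The assays also differed in read length, aligner, build and annotation, and the part of each in the differences cannot be told apart.

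Histone genes of a class are near-identical in their coding parts, so reads can be shared, split or dropped among copies according to the counting. Bulk reads were counted with HTSeq on mm10, and lysate and footprint reads of 50 bases were aligned with Bowtie2 to mm39. The level of any single copy is uncertain for that reason, and sums over a class less so.

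**Figure D2:**
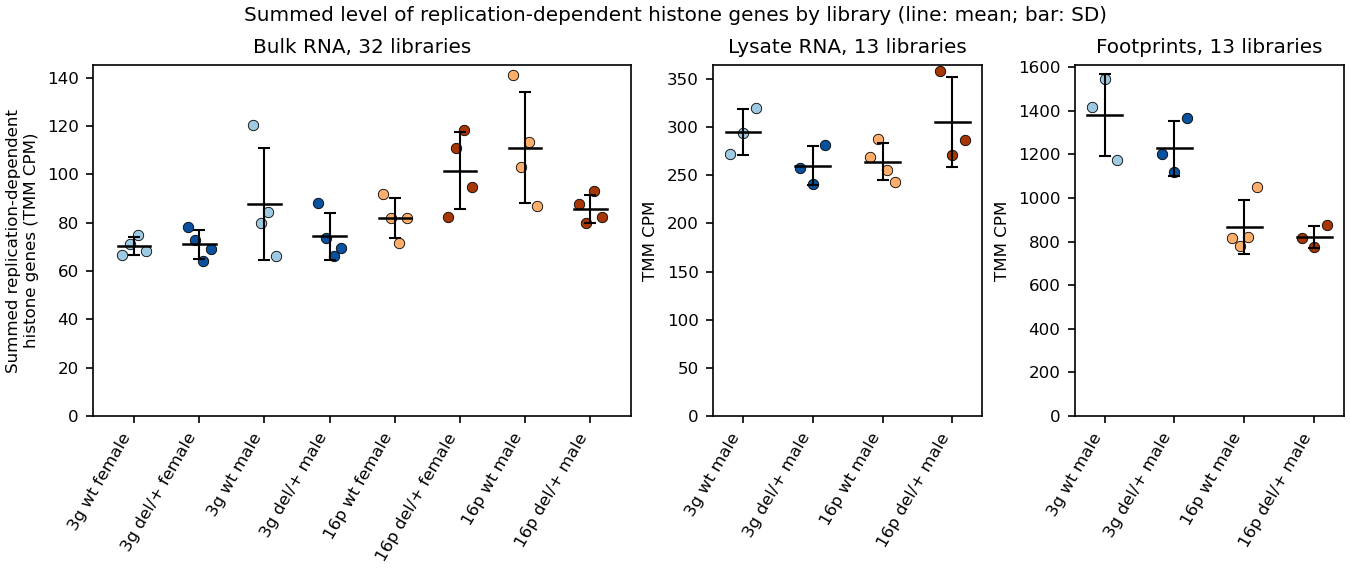
Summed level of the replication-dependent histone genes (y axis, CPM after TMM scaling within each assay) in every library by group, with the group mean and SD. Bulk libraries lay between 64.2 and 141 CPM, lysate libraries between 241 and 358 and footprint libraries between 774 and 1544; in footprints the lines did not overlap.

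Of the genes, 55 lie on chromosome 13 between bases 21715711 and 23934913 of GRCm38.p6 (the mm10 build), 10 on chromosome 3 between 96219885 and 96270192, 3 on chromosome 11 between 58948911 and 58955192 and 1 on chromosome 6, with Hist1h2al elsewhere on chromosome 13. RefSeq lists 67 of the 70 as protein coding, and 5 with more than 1 transcript. Promoter windows from RefSeq for GRCm38.p6, reaching from 250 bases before to 50 bases after the start, were given for 62 of the 70. They were searched on both strands for CCAAT (reverse ATTGG), the box bound by NF-Y, for the TATA box TATAAA (reverse TTTATA) and for the octamer ATTTGCAT (reverse ATGCAAAT) bound by Oct1. CCAAT was in 53 of the 62 windows (85.5%) against 41.1% of 27025 genes with a window; it was in all 50 windows of H1, H2A, H2B and H3 genes and in 3 of 12 of H4 genes. TATAAA was in 56.5% of the members' windows against 15.7% of all, and the octamer in 7 of 18 H2A and 7 of 16 H2B windows, in none of the other classes, and in 1.97% of all.

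The windows below are those of 3 genes that led in bulk RNA and of 2 H4 genes called higher in footprints than in lysate RNA. Hist1h4f had the largest such difference of the H4 genes in the 3g line and Hist1h4d in the 16p11.2 line. Capitals mark matches to the 3 motifs on either strand. Positions are chr13:23738557-23738856, plus strand, for Hist1h1c; chr11:58948661-58948960, plus strand, for Hist3h2ba; chr11:58954435-58954734, plus strand, for Hist3h2a; chr13:23551619-23551918, minus strand, for Hist1h4f; and chr13:23581318-23581617, plus strand, for Hist1h4d.
Hist1h1c: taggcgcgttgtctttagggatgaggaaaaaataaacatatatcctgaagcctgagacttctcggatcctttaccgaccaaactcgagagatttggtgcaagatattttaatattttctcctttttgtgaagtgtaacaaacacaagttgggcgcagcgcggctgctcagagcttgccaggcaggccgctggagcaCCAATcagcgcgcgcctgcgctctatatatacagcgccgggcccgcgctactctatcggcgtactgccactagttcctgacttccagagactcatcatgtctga
Hist3h2ba: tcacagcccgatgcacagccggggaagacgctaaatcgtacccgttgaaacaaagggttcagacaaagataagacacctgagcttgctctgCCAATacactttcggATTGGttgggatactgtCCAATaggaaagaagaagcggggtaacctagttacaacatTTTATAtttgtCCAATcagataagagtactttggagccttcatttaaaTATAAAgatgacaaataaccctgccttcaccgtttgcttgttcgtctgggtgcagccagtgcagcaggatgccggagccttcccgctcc
Hist3h2a: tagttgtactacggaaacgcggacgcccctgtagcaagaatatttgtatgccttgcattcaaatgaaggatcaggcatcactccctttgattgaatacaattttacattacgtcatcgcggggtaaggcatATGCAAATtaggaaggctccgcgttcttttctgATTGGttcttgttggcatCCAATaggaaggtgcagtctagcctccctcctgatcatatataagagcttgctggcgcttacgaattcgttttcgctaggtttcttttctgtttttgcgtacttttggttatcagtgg
Hist1h4f: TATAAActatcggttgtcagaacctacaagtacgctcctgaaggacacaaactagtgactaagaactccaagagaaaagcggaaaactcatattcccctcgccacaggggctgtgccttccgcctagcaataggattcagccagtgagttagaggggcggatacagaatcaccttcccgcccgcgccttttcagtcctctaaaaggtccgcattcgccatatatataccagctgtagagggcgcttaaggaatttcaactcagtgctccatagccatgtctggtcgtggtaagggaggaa
Hist1h4d: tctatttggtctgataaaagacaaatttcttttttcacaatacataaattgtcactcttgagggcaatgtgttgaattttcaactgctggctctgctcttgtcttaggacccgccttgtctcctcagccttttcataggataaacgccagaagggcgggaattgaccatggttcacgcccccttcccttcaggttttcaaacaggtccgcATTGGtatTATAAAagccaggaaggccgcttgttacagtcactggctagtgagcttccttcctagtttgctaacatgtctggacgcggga
The Hist1h1c window holds a single CCAAT match, the Hist3h2ba window 4 CCAAT and 2 TATAAA matches, and the Hist3h2a window 2 CCAAT matches and the octamer. The Hist1h4f window holds TATAAA at its outer end and no CCAAT, and the Hist1h4d window both close to the start. A match describes letters only, and no binding was measured here.

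The 16p11.2 deletion was compared with wt in bulk RNA of each sex. No member passed the test in either sex, but the differences ran in opposite directions: most tested members were lower in del/+ than in wt males and higher in del/+ than in wt females. Summed over the members, wt males held 141, 103, 114 and 86.8 CPM and del/+ males 87.6, 80.0, 93.0 and 82.6. Wt females held 91.8, 82.0, 71.7 and 82.0 CPM and del/+ females 82.6, 111, 118 and 94.7. The groups overlapped in both sexes, and the highest library of the line was that of a wt male. The female overlap came from del/+ female 1, the library with Ddx3y counts, alone: without it del/+ females lay at 94.7 to 118 CPM, above all wt females, while the males overlapped with and without del/+ male 4.

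After adjustment by Benjamini and Hochberg, the quasi-likelihood test of edgeR called 0 of 15 tested members in males, against 0.106% of 17957 genes. Of the 15, 5 had an unadjusted p under 0.05 (33.3%, against 5.82% of all genes), and DESeq2 called none. In del/+ males 3 members were higher than in wt (20% of those tested, against 49.1% of all genes), and the median log2 difference was -0.38 against -0.01 over all genes. In females 0 of 14 tested members were called, against 0.144% of 18067 genes; 4 had an unadjusted p under 0.05 (28.6%, against 4.47%), and DESeq2 called none. Of the 14, 13 were higher in del/+ (92.9%, against 49.6%), with a median of 0.28 against a median of all genes near 0. Without del/+ male 4, 2 of 15 members were higher in males (13.3%, against 49.2%; median -0.50), and without del/+ female 1, 13 of 14 were higher in females (92.9%, against 48.2%; median 0.42), again with 0 called by edgeR; an unadjusted p under 0.05 was then held by 5 of 15 members in males and 6 of 14 in females (33.3% and 42.9%, against 4.02% and 6.11%). Members tested had first to pass a filter on low counts, so these shares describe the 13 to 17 most abundant members only.

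**Figure D3:**
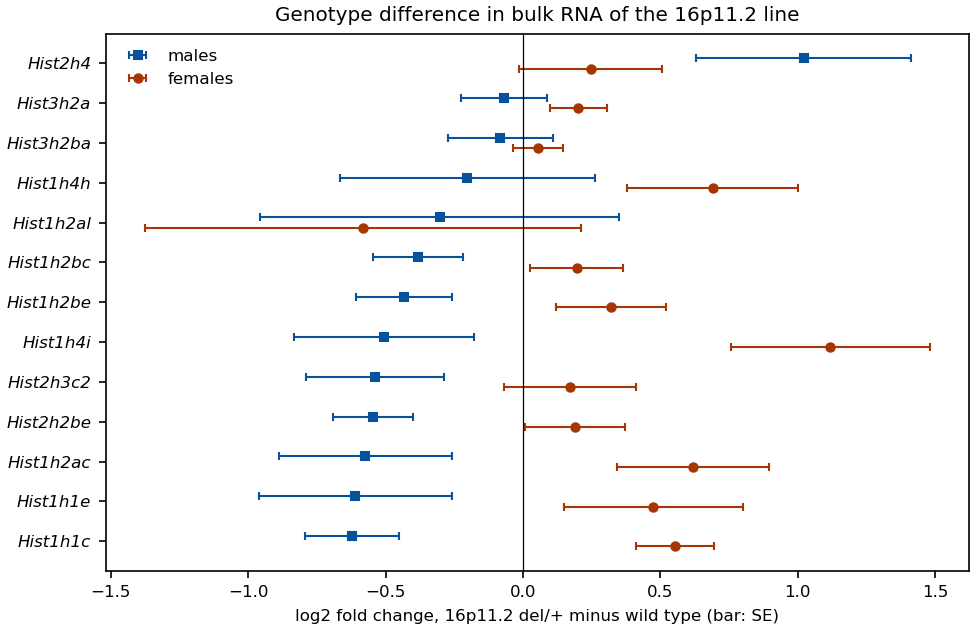
Log2 fold change of 16p11.2 del/+ against wt (x axis, bar: SE) in bulk RNA for the 13 members tested in both sexes (y axis), males as squares and females as circles. For 11 of the 13 the male value lies below 0 and the female value above it, and none passed the test. The share of all genes with such opposite signs was not computed. Copies of a class can share reads, so the members are not separate observations.

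With all libraries, the linker histone gene Hist1h1c was the 1 member without overlap of wt and del/+ in both sexes. The share of all genes without overlap in both sexes was not computed. Wt males held 41.8, 28.4, 27.1 and 24.2 CPM and del/+ males 20.5, 17.6, 23.0 and 17.4, so that the groups did not overlap. Wt females held 20.5, 18.01, 14.5 and 19.1 CPM and del/+ females 20.7, 29.8, 31.6 and 23.9, again without overlap. The wt males were above both the wt females and the del/+ males in every library. The log2 difference was -0.62 (SE 0.17, edgeR adjusted p = 0.742) in males and 0.55 (SE 0.14, adjusted p = 0.633) in females. It was 0.66 in females without del/+ female 1, the library with Ddx3y counts, and -0.57 in males without del/+ male 4.

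The difference between the sexes was itself tested as a genotype by sex interaction. It was -1.18 for Hist1h1c (SE 0.24), with an edgeR unadjusted p of 0.00013 and adjusted p of 0.835, and -1.19 with an adjusted p of 0.0132 in DESeq2. Over 6 alternatives the interaction of Hist1h1c lay between -1.23 and -1.14, and DESeq2 was the only one to call it. edgeR called 0 of 17 tested members and 0 of 18870 genes (0%) in this interaction. Of the 17, 7 had an unadjusted p under 0.05 (41.2%, against 4.33% of all genes), and DESeq2 called 1 member among 3 genes. Without the 2 libraries of the line that stood apart, the median interaction of the members was -0.94 in place of -0.74.

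With all libraries, every other tested member overlapped in at least 1 sex; without del/+ male 4 and del/+ female 1, Hist1h2be too was without overlap in both, at -0.58 in males and 0.50 in females. The H4 gene Hist1h4i had the largest interaction (-1.63, SE 0.53), with 0.780, 1.27, 2.01 and 2.01 CPM in wt females and 1.93, 5.01, 4.05 and 2.26 in del/+ females. These overlapped through del/+ female 1 (1.93 CPM) alone, and the other 3 del/+ females lay above all wt females. Hist2h2be held 8.02, 7.07, 8.21 and 6.84 CPM in wt males and 5.96, 4.53, 5.31 and 4.76 in del/+ males, without overlap, with a log2 difference of -0.55 (SE 0.15); in females the groups overlapped at 4.67 to 5.59 and 4.27 to 7.23. Hist1h2bc, Hist1h2be and Hist2h3c2 were at -0.38, -0.43 and -0.54 in males and at 0.20, 0.32 and 0.17 in females, with overlapping groups; without del/+ male 4, Hist1h2be and Hist2h3c2 did not overlap in males. Hist3h2a and Hist3h2ba, which share a locus on chromosome 11, were at -0.07 and -0.08 in males and at 0.20 and 0.05 in females. Hist2h4 went the other way in males, at 1.17, 1.36, 1.29 and 3.78 CPM in del/+ against 0.853, 1.09, 1.01 and 0.816 in wt; the value of 3.78 came from del/+ male 4. The log2 difference of Hist2h4 was 1.021 (SE 0.39), and 0.44 (SE 0.22) without that library. The groups did not overlap for 3 of the 15 members in males (20%, against 3.82% of all genes) and 1 of 14 in females (7.14%, against 2.85%). Without the libraries that stood apart these were 6 of 15 (40%, against 5.7%) and 4 of 14 (28.6%, against 6.48%).

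Genes around the histone pathway gave no call in either sex. None of 17 genes of histone mRNA processing and control, 8 replication-independent histones or 17 genes of S phase and division passed the test. The log2 difference was below 0 for all 8 replication-independent genes in males (50.9% of all genes; median -0.24, or -0.15 without del/+ male 4, where all 8 were also below 0), and above 0 for 4 of 8 in females (median -0.01). H3f3b, the most abundant of them, averaged 120 CPM in del/+ and 133 in wt males. Mki67, a marker of dividing cells, averaged 4.02 CPM in del/+ and 3.10 in wt males, and 2.38 and 2.62 in females. Summed oligodendrocyte precursor markers, another dividing population, held 222 to 250 CPM in del/+ and 218 to 274 in wt males, and 209 to 259 and 225 to 247 in females; their part in the histone values was not tested.

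**Figure D4:**
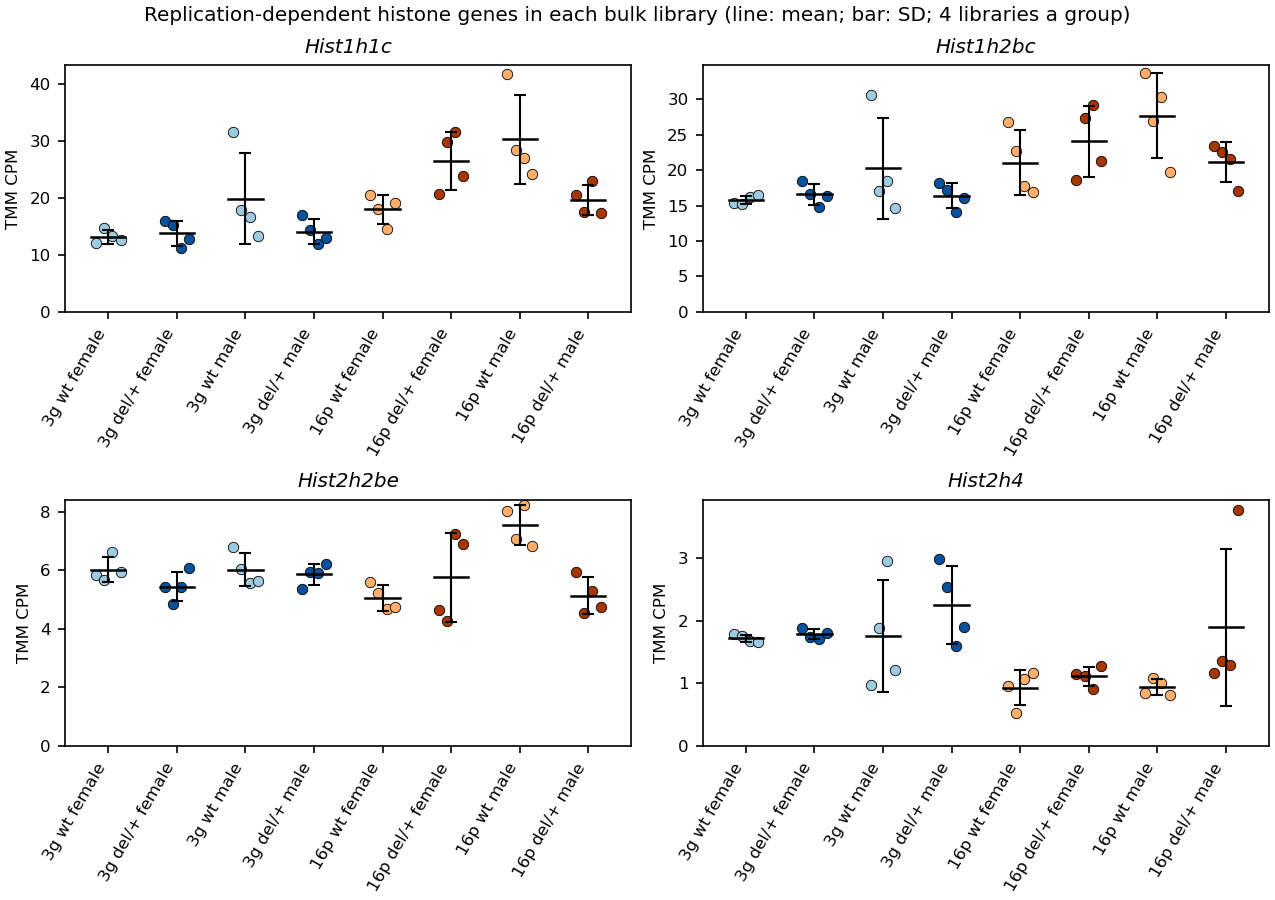
Level of single replication-dependent histone genes (y axis, CPM after TMM scaling over the 32 bulk libraries) in each bulk library by line, sex and genotype, with the group mean and SD. Hist1h1c lies at 24.2 to 41.8 CPM in 16p11.2 wt males and at 14.5 to 20.5 in wt females, and 3g wt male 17 lies at 31.7, above the other 3g libraries.

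In the 3g line no member stood out. The summed level was 66.1, 79.7, 84.4 and 120 CPM in wt males, the highest being wt male 17, and 88.2, 73.7, 66.3 and 69.4 in del/+ males. Wt females held 66.6, 71.1, 74.9 and 68.5 CPM and del/+ females 78.3, 72.7, 64.2 and 69.2. The groups overlapped in both sexes. edgeR called 0 of 16 members in males (0% of 19081 genes) and 0 of 14 in females (0.00526% of 19024 genes). At an unadjusted p under 0.05 there were 0 members in males (1.44% of all genes) and 1 in females (7.14%, against 11% of all genes), and DESeq2 called none in either sex. The interaction with sex called 0 of 18 members (0% of 19830 genes), with 1 at an unadjusted p under 0.05 (5.56%, against 2.69%) and none by DESeq2. The median log2 difference was -0.16 in males (-0.03 without wt male 17) and 0.07 in females. Without wt male 17, edgeR called 0 of 17 members in males (0% of 19403 genes), and the summed levels still overlapped. In that fit 0 members had an unadjusted p under 0.05 (3.03% of all genes), and 6 were above 0 (35.3%, against 49.3%).

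Hist1h1c held 31.7, 17.9, 16.8 and 13.3 CPM in 3g wt males and 17.03, 14.3, 11.9 and 12.99 in 3g del/+ males. The groups overlapped, and without wt male 17 the wt males lay at 13.3 to 17.9. In 3g females the gene lay at 12.1 to 14.8 CPM in wt and 11.17 to 15.9 in del/+. No list of the histone pathway held a called gene in either sex of this line. The sum of 5 cortical neuron markers ranged from 34.4 to 630 CPM over the 3g libraries other than wt male 17, and from 737 to 1299 CPM over the 16p11.2 libraries other than del/+ male 4. These markers thus moved with the line, and their part in the histone values was not tested.

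The lines were compared among wt mice, 16p11.2 against 3g. In females edgeR called 9 of 15 tested members, 60%, against 59.9% of 19013 genes, so the share of members called was that of all genes. Hist2h3c2 was higher in the 16p11.2 line at 2.39, 2.08, 1.82 and 2.27 CPM against 1.08, 1.08, 1.23 and 1.23, without overlap (log2 difference 0.89, SE 0.14, edgeR adjusted p = 0.000305). Hist1h1c (0.45), Hist3h2ba (0.41), Hist1h2bc (0.41) and the H4 gene Hist1h4h (0.81) were also higher. Hist2h4 was lower at 0.962, 0.531, 1.07 and 1.17 CPM against 1.79, 1.76, 1.68 and 1.66, without overlap (log2 difference -0.85, SE 0.20, adjusted p = 0.00372). Hist1h4k (-2.16), the H3 gene Hist1h3d (-1.01) and Hist2h2be (-0.26) were lower too. The groups did not overlap for 8 of the 15 members (53.3%, against 54.8% of all genes).

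In the same female comparison 6 of 8 replication-independent histone genes rose (75%, against 29.8% of all genes called higher and 30.1% called lower), among them H2afz (log2 0.41, SE 0.04) and H1f0 (0.57, SE 0.08), and none fell. Of 17 genes of histone mRNA processing and control, 12 passed (70.6%, against 59.9%), 7 higher and 5 lower: Lsm11, part of the U7 ribonucleoprotein, was higher (0.88), and Npat and Hinfp, which act in histone gene transcription, were lower (-0.32 and -0.42). Of 17 S phase and division genes 9 were lower (52.9%, against the 30.1% called lower) and none higher, among them Top2a (-1.45) and Mki67 (-1.36). Of subventricular neuroblast markers, 4 of 6 were lower, and all 5 cortical neuron markers were higher (median 1.91). Rn7sk was higher (2.84, SE 0.61). Line, breeding, dissection and library batch cannot be told apart here.

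In wt males edgeR called 0 of 16 members between the lines, against 0.0162% of 18561 genes. At an unadjusted p under 0.05 there were 4 (25%, against 36.1% of all genes), and DESeq2 called none. Without 3g wt male 17, 5 of 16 members were called (Hist1h1c 0.91, Hist1h2bc 0.71, Hist2h2be 0.37, Hist2h3c2 1.13 and Hist2h4 -1.11) among 8835 of 19093 genes, 31.2% against 46.3%. The fit over all 32 bulk libraries called 5 of 19 members (26.3%, against 39% of all genes). Of the 5 called without 3g wt male 17, 4 had the sign of the females, and Hist2h2be had the opposite one. In males Hist2h2be held 8.02, 7.07, 8.21 and 6.84 CPM against 6.81, 6.03, 5.57 and 5.64 in the 3g line. In females it held 5.59, 5.23, 4.67 and 4.74 against 5.85, 5.68, 6.62 and 5.94. With del/+ libraries in place of wt, a comparison added after the values were seen, 8 of 13 members were called in females (61.5%, against 56.3% of all genes) and 0 of 14 in males (against 15%). Without the libraries that stood apart these were 10 of 14 (71.4%, against 57%) and 4 of 14 (28.6%, against 48%). The ratio of mean summed level, 16p11.2 over 3g wt, was 1.17 in females and 1.27 in males, and 1.45 in males without 3g wt male 17.

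In lysate RNA the members could nearly all be tested, and none was called for genotype in either line. The 3g wt mice held 272, 294 and 320 CPM summed over the members and the del/+ mice 258, 241 and 281, with overlap. The 16p11.2 wt mice held 269, 288, 256 and 243 CPM and the del/+ mice 358, 271 and 287, with overlap. edgeR called 0 of 66 members in the 3g line (0.0209% of 14378 genes), with 4 at an unadjusted p under 0.05 (6.06%, against 4.92%), and 0 of 65 in the 16p11.2 line (0.133% of 14330 genes), with 5 (7.69%, against 4.41%). DESeq2 called none in either. Members were mostly lower in 3g del/+ mice, 15 of 66 being higher (22.7%, against 49.7% of all genes; median -0.22). They were mostly higher in 16p11.2 del/+ mice, 57 of 65 (87.7%, against 50.4%; median 0.29). In the summed level only the del/+ animal at 358 CPM lay above all wt mice of that line. Those at 271 and 287 CPM lay within the wt range of 243 to 288. In edgeR fits that left out each lysate library of the 16p11.2 line in turn, the animal at 358 CPM included, 0 members were called. The share of members higher without that animal is not given here, so no conclusion is drawn on whether the direction holds. Copies of a class can share reads, so the members of either line are not separate observations. The groups did not overlap for 14 of 66 members in the 3g line (21.2%, against 9.63%) and for 2 of 65 in the 16p11.2 line (3.08%, against 5.68%). The male bulk RNA of the 16p11.2 line ran in the other direction, and the difference between the assays was not tested.

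All 12 H3 genes lay higher in 16p11.2 del/+ lysate RNA (median 0.50), and Hist2h3c2 had the lowest unadjusted p at 0.73 (SE 0.27, adjusted p = 0.990 in edgeR). In the 3g line all 5 tested H1 genes lay lower (median -0.30), with Hist1h1d at 3.85 ± 0.571 against 5.84 ± 0.883 CPM (SD, n = 3 each). Without 3g wt animal 300 the H2A gene Hist2h2ab was called in the 3g line; its 3 wt lysate libraries had 35, 0 and 0 counts, the 35 in animal 300. Between the wt mice of the lines edgeR called 0 of 65 members (0.0139% of 14417 genes), with 7 at an unadjusted p under 0.05 (10.8%, the share of all genes) and none by DESeq2. Of the 65, 14 were higher in the 16p11.2 line (21.5%, against 49.6%), whereas 53 of 66 were higher in the comparison of del/+ mice (80.3%, against 48.7%), so the direction turned with the genotype used.

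Footprints allowed 9 to 20 members to be tested. Genotype gave no call: 0 of 20 in the 3g line (0.0132% of 7553 genes), with 4 at an unadjusted p under 0.05 (20%, against 7.97%), and 0 of 9 in the 16p11.2 line (0.117% of 5964 genes), with none (against 6.15%). DESeq2 called none in either line. Between the wt mice of the lines the summed level was 814, 779, 822 and 1050 CPM in the 16p11.2 line and 1419, 1544 and 1173 in the 3g line, without overlap. In del/+ mice it was 815, 774 and 874 against 1203, 1117 and 1364, again without overlap. On a scale common to footprints and lysate RNA, the H4 genes did not overlap between the lines in either genotype. Members other than H4 overlapped in wt footprints, at 327 to 460 CPM in the 16p11.2 line and 444.5 to 624 in the 3g line. In del/+ footprints they did not overlap, at 286 to 346 against 441 to 551 CPM.

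Gene by gene, edgeR called 0 of 17 members between the wt footprints of the lines, against 0.241% of 6633 genes. Of the 17, 11 had an unadjusted p under 0.05 (64.7%, against 10.5% of all genes), and DESeq2 called none. The 17 included 13 H4 genes, near-identical copies that can share reads, so they are not 17 separate observations. Outside the H4 genes, Hist1h1e was at an unadjusted edgeR p of 0.0418. Hist3h2ba, Hist1h1c and Hist3h2a were at 0.187, 0.508 and 0.674. A single gene of 17 was higher in the 16p11.2 line (5.88%, against 49.8%), the median log2 difference was -0.68, and 6 did not overlap (35.3%, against 10%). Hist1h4f held 23.4, 34.4, 32.6 and 41.1 CPM in the 16p11.2 line and 84.4, 82.0 and 55.1 in the 3g line, without overlap (log2 difference -1.16, SE 0.30, edgeR adjusted p = 0.117). These values rest on 8 to 21 counts a library in the 16p11.2 line and 25 to 38 in the 3g line. Scaling by library totals in place of TMM called 13 of 17 members (76.5%, against 10.3% of all genes) and moved the median of all genes by -0.50. With del/+ mice in place of wt, 0 of 17 were called (against 3.43%), 2 were higher (11.8%, against 50%), 3 had an unadjusted p under 0.05 (17.6%, against 15.6%) and the median was -0.45.

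Footprints were compared with lysate RNA of the same animals, which asks how footprint counts of each gene stand to its RNA counts. In 3g wt mice 40 of 66 tested members were called and in 16p11.2 wt mice 28 of 61, all of them higher in footprints (edgeR with animal as a block). That is 60.6% and 45.9% of the members, against 16.9% of 13963 and 20.6% of 13682 genes called higher, and 38.3% and 46.1% called in either direction. In the 16p11.2 line the share of members called was thus above that of all genes called higher and about that of all genes called in either direction. The median log2 difference was 1.80 in the 3g line and 1.31 in the 16p11.2 line, against -0.03 and -0.04 over all genes. A total of 24 members were called in both lines, 60% of those of the 3g line and 85.7% of those of the 16p11.2 line. The same overlap over all genes was not computed, so these shares are not read as a result about the members. Without the 3g wt animal with the highest summed footprint level, 19 members were called in that line (28.8%, against 26.5% of all genes in either direction).

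**Figure D5:**
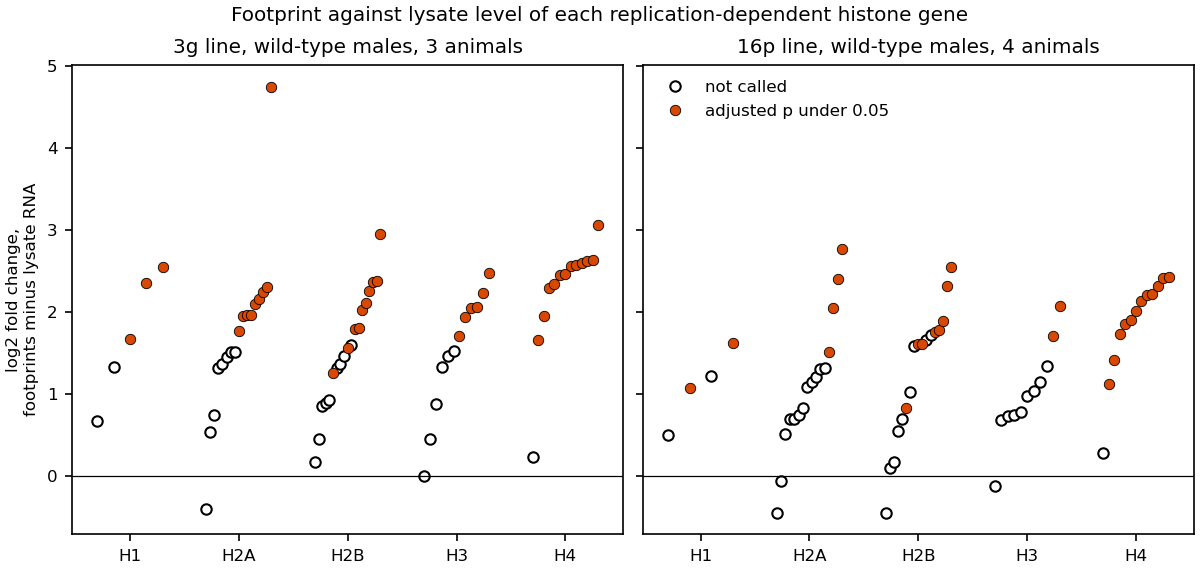
Log2 fold change of footprints against lysate RNA (y axis) for each tested member by histone class (x axis) in wt males of the 3g line (66 genes) and the 16p11.2 line (61 genes); filled points had an adjusted p under 0.05. Of 13 H4 genes 12 are filled in each line, and the filled points lie above 0.

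The H4 genes led. Of the 13, 12 were called in each line, the exception in both being Hist2h4 (0.24 and 0.29). Hist1h4f held 7.71, 7.64 and 7.93 CPM in 3g wt lysates and 66.5, 68.2 and 45.4 CPM in the footprints of the same animals on a common scale (log2 difference 3.06, SE 0.28, edgeR adjusted p = 1.87e-07). In the 16p11.2 line it held 6.06, 5.41, 5.74 and 5.28 CPM in lysates and 20.3, 29.5, 28.2 and 34.9 in footprints (2.41, SE 0.36, adjusted p = 6.88e-08). Each animal was higher in footprints. Hist1h4d was at 2.29 (SE 0.24) and 2.43 (SE 0.24), and Hist1h4h at 2.46 and 2.21, in the 3g and 16p11.2 lines. The smallest adjusted p of the 16p11.2 line was that of Hist1h4d (1.51e-13).

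The other classes were called less evenly. In the 3g line these were 9 of 17 H2A, 10 of 19 H2B, 6 of 12 H3 and 3 of 5 H1 genes. In the 16p11.2 line they were 4 of 16, 8 of 17, 2 of 11 and 2 of 4. Over all genes 16.9% were called higher in the 3g line and 20.6% in the 16p11.2 line. The H2A and H3 shares of the 16p11.2 line were near that of all genes. The largest 3g value, 4.75 for Hist2h2ab, rests on the lysate libraries at 0 named above and its size depends on the prior count of the fit. Of the 6 genes that led in bulk RNA, Hist3h2ba was called in both lines (1.26 and 0.83). Hist1h1c (0.67 and 0.51), Hist1h2bc (0.86 and 0.55), Hist1h2be (0.45 and 0.10), Hist2h2be (0.18 and -0.44) and Hist3h2a (-0.40 and -0.44) were not.

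Summed by animal on the common scale, the ratio of footprint to lysate CPM over all members was 3.46, 3.65 and 2.57 in 3g wt mice and 2.21, 1.95, 2.37 and 3.09 in 16p11.2 wt mice. For the H4 genes it was 4.63, 5.11 and 4.06 in the 3g line and 3.33, 2.72, 3.45 and 4.70 in the 16p11.2 line. For the 6 genes that led in bulk RNA it was 1.34, 1.53 and 1.05, and 0.869, 0.875, 1.06 and 1.47. For the replication-independent histones it ranged from 0.695 to 1.01 over all 13 animals. In all 13 animals the H4 ratio was the highest of these 4. The replication-independent ratio was the lowest except in 1 wt and 1 del/+ animal of the 16p11.2 line, where that of the 6 genes was lower.

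Among replication-independent histone genes, H3f3b was lower in footprints in both lines (-0.82 and -0.79), and H1fx was higher in the 3g line (0.93). Of 17 histone mRNA processing genes in the 3g line 4 were higher, among them Cpsf2 (1.68), and 4 lower, among them Casp8ap2 (-3.00) and Npat (-1.35). In the 16p11.2 line 4 of 16 were higher and 3 lower. Over all genes 16.9% were called higher in the 3g line and 20.6% in the 16p11.2 line, and 38.3% and 46.1% in either direction. The shares of this list were near those of all genes. The part of shared reads among histone copies, and of the unstated selection of lysate RNA, in these values was not tested.

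The genes whose bulk level followed the summed histone level most closely were sought among 18514 genes, taking the lower of the 2 Spearman correlations, each over the 16 libraries of a line. They were Zfp180 (0.750 in the 3g line and 0.691 in the 16p11.2 line), Gm17102 (0.682 and 0.682), Mtln (0.741 and 0.671), Tmem231 (0.718 and 0.668) and Lgi4 (0.662 and 0.779). The libraries share depth and dissection differences, and these values are descriptions.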

How the data were processed

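Gene counts were deposited by the authors as whole-number counts per gene and library, 1 table per line for bulk RNA, lysate RNA and footprints, with no normalization. Per the labels, bulk reads were counted with HTSeq on mm10, and lysate and footprint reads were aligned with Bowtie2 to mm39; versions, multi-mapping and strand settings are not given in the sources used here. The study's methods name a stranded total RNA kit and the bcbio-nextgen pipeline for bulk RNA and do not describe the lysate and footprint libraries. Every library was used, and groups came from the labels.

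Symbols were taken from the gene name table by Ensembl ID (123 bulk and 34 lysate and footprint IDs had none). Each comparison was fitted with edgeR 4.0.16 (R 4.3.3; quasi-likelihood test, filterByExpr with a minimum count of 10, TMM) over all genes passing the filter, with Benjamini-Hochberg adjustment and a call at an adjusted p under 0.05. Footprints and lysate RNA were fitted in 1 model with the animal number of the labels as a block, since both came from the same lysate. Summed levels are CPM with TMM factors over all libraries of an assay. Alternatives were DESeq2 1.42.0, other scalings, no filter, larger fits and leaving out libraries. The scripts were tested on simulated counts.

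The members, the lists and the tests were chosen with earlier results of these data known. Named genes were those called in a comparison (at most the 10 with the smallest adjusted p), the 10 members highest in bulk RNA, the 3 with known polyadenylated mRNA, the replication-independent histones, and called or most abundant genes of the lists; Hist1h4f in bulk RNA, Hist1h1d and members with outlying libraries were added after their values were seen. In the 16p11.2 bulk libraries same-numbered wt and del/+ samples correlated at -0.24 to 0.12 in their deviations from the group means, so the numbers were not treated as pairs. No libraries were identical.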

Additional observations from a re-analysis of the deposited data

Results flagged for a closer look

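Among 90 groups and values of 4 libraries, Dixon's test (critical value 0.829) marked 6 with a single library far from the others; chance marks about 1 in 20. In the 16p11.2 line, Hist3h2a was at 13.99 CPM in del/+ male 3 (others 10.5 to 10.96), and Hist2h4 was at 3.78 CPM in del/+ male 4 (others 1.17 to 1.36), the library that lay near the 3g line over all genes. In the 3g line, Hist3h2ba was at 10.1 CPM in del/+ female 28 (others 7.60 to 7.94), Hist1h4i was at 2.38 CPM in del/+ male 25 (others 1.204 to 1.32), the library with the fewest counts in bulk RNA, and Hist2h3c2 was at 3.44 CPM in wt male 17 (others 1.48 to 1.58), the library that lay near the 16p11.2 line. The summed footprint level was 1050 CPM in 1 of the 4 16p11.2 wt animals (others 779 to 822).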

How the results depend on the processing

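Of 203 alternatives over 21 results, nearly all of them counts with no direction of their own, 191 kept the value near that reported and 12 moved it. Member counts in this section stand without the share of all genes in the same fit. They show how far a count moved and are not read as results about the members. The direction of most members between the lines in lysate RNA turned with del/+ in place of wt libraries. Members without overlap in the 16p11.2 bulk comparisons went from 3 to 6 in males and from 1 to 4 in females without the libraries that stood apart, a setting chosen after seeing the data. The genotype by sex interaction of the 16p11.2 line went from 0 to 1 called member with DESeq2. A fit over all 32 bulk libraries called 5 members between wt males and 5 between wt females of the lines. Between wt footprints of the lines, 13 members were called with library totals, 1 without a filter and 1 with all 13 footprint libraries in the fit. Leaving out 1 library at a time gave 0 to 5 members between wt males of the lines (5 without 3g wt male 17), 0 to 1 for genotype in 3g lysate RNA (1 without wt animal 300), 0 to 1 between wt footprints of the lines (1 without the 3g wt animal with the lowest footprint level) and 19 to 31 for footprints against lysate RNA in 3g wt mice, each below the 40 called with all 3 animals.

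The replicate block of the 16p11.2 bulk libraries called 0 members in males, 0 in females and 0 in the interaction, as without it; 1 of the 8 same-numbered pairs correlated best with its own number. Without the animal as a block, footprints against lysate RNA called 43 members in the 3g line and 30 in the 16p11.2 line. No paired analysis was possible for the 3g bulk libraries because their groups share no numbers. Scaling by library totals moved the median of all genes by -0.14 between wt females of the lines, -0.12 between wt lysates, -0.50 between wt footprints, and 0.59 and 0.20 for footprints against lysate RNA. Footprint libraries held at most 678130 counts, and most members lay below the filter there.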
